A study of Homo sapiens with 5 samples.

Results

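The ATAC peaks of chromosome 22 were followed along the long arm in nuclei of a mixture of lung adenocarcinoma cell lines. All 2824 peaks that the authors' feature table of the larger portion places on chromosome 22 were taken, of 158342 peaks in all, together with the 901 genes of the chromosome among 36601 genes. ATAC counts and RNA UMIs came from the same barcodes of a 10X Multiome experiment, in which each nucleus gives both a chromatin accessibility library and an RNA library. The 5 human lines (A549, H838, HCC827, H1975 and H2228) were grown untreated and loaded together as a mixture, so a single pool was measured and no line has a library of its own. The GEMs, the droplets of the run, were divided into portions of 80% and 20%, with 1 RNA and 1 ATAC library each. The 80% portion holds 6557 barcodes with 95455518 UMIs and 63920767 ATAC counts, and the 20% portion holds 1286 barcodes with 14346346 UMIs and 12850543 ATAC counts. Both portions come from the same pool of nuclei and share 159 barcode sequences. The files name no cell line for a barcode, so the nuclei were grouped by their RNA, with all chromosome 22 genes left out of the grouping. The authors mixed equal numbers of cells of each line. The grouping was set to give at least 5 groups, which were not matched to the lines and need not be 1 line each. The 5 groups are called RNA clusters 0 to 4 and are given by number and leading genes only. They hold 2469 nuclei (cluster 0, led by MEG3 and MEG8), 1459 nuclei (cluster 1, ST6GAL2 and ALDH1A1), 1451 nuclei (cluster 2, AC069277.1 and CARD18), 849 nuclei (cluster 3, led by DHRS2) and 329 nuclei (cluster 4, AC090578.1 and EGFR). The chromosome was singled out with earlier results of these data known, in which its share of counts differed between clusters. With 1 library of each kind per portion and nuclei that are not replicates, no test was made between clusters. All intervals cover counting error only.

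Chromosome 22 is a small, gene-rich chromosome whose short arm carries ribosomal RNA repeats and whose genes lie almost wholly on the long arm. In ATAC-seq, a transposase cuts open chromatin, and the cuts that fall in a peak depend on how open the site is and on how many copies of it the nucleus holds. Tumour cell lines commonly carry gained or lost stretches of chromosomes. Among well known genes of the long arm are NF2, SMARCB1 and EP300, which encode a tumour suppressor, a chromatin remodelling subunit and a histone acetyltransferase.

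Chromosome 22 peaks had a median width of 888 bp, against 887 bp over all chromosomes, and a median GC content of 52.5%, against 46.1%. A peak counted as near a gene start within 1000 bp of the stretch from a gene's first to its last listed start. This held for 33.9% of chromosome 22 peaks, against 28.5% of all peaks. The near peaks took 53.0% of the chromosome's ATAC counts, against 54.4% over all chromosomes. Some near peaks can thus lie far from any single start: 53 peaks counted as near through SYN3 and 23 through MRTFA. Of the motifs searched on both strands in the central 300 bases of each peak, the AP-1 letters TGANTCA occurred in 29.0% of chromosome 22 peaks and 33.8% of all peaks. ETS letters CCGGAAG occurred in 4.21% and 3.11%, TEAD letters ACATTCC in 5.56% and 6.83%, FOX letters TGTTTAC in 4.32% and 5.28%, and the CTCF core motif in 1.88% and 1.55%. ETS letters occurred in 8.04% of chromosome 22 peaks near gene starts and in 2.25% of those farther away, and the AP-1 letters in 21.2% and 33.0%. The HNF1 motif was found in none of the chromosome 22 peaks and in 0.0821% of all peaks. The sequences below are the central 300 bases of peaks that stood among the highest above the other clusters in cluster 1, 2 or 3, on the plus strand of GRCh38 (hg38). They are shown because most of their counts came from 1 cluster, in the order printed 560 of 626, 285 of 345 and 530 of 608. Capitals mark FOX letters (here in the reverse direction, GTAAACA), ETS letters and the letters CCAAT or ATTGG, the latter searched after the sequences had been seen.
Cluster 1, intergenic, chr22:48370203-48370502: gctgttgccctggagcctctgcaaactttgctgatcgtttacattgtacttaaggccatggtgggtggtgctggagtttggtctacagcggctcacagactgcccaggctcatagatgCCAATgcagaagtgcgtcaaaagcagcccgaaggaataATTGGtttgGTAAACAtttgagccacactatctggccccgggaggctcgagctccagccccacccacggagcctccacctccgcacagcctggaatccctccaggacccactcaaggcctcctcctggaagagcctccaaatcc
Cluster 2, below 16 Mb, chr22:12602096-12602395: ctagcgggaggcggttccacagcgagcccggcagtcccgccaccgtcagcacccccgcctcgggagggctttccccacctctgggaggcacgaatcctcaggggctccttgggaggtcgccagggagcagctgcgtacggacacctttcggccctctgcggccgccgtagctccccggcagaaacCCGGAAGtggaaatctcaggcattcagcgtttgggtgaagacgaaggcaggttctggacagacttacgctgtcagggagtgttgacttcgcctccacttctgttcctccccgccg
Cluster 3, RFPL3 intron, chr22:32354968-32355267: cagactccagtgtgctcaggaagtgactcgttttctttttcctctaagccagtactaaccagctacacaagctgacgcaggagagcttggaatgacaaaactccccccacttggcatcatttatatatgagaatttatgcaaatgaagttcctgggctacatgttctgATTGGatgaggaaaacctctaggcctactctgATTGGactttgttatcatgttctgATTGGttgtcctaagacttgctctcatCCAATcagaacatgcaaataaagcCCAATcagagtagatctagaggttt
The letters CCAAT or ATTGG, the CCAAT box that nuclear factor Y binds, occurred 5 times in the RFPL3 intron peak. Its centre is intronic, and the peak also counted as near a gene start, that of RFPL3. Of the 2824 chromosome 22 peaks, 28.9% held the letters at least once and 13 peaks (0.460%) held them at least 5 times in the central 300 bases. A further peak among those 13 was the peak with the largest excess in cluster 0, in an annotated UTR of SCARF2, which is not printed. All 6 pieces of 50 bases into which the printed stretch was divided occurred once in the reference genome for the cluster 1 peak and the RFPL3 intron peak. For the cluster 2 peak, 5 of 6 pieces did, and the remaining piece occurred 2 times. Only exact matches were counted, so copies that differ in some bases are not seen this way.

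Chromosome 22 took the lowest share of ATAC counts in cluster 0 and the highest in cluster 3. The share was 1.33% in cluster 0 (95% exact binomial interval 1.32 to 1.34), 1.78% in cluster 1 (1.77 to 1.79), 1.93% in cluster 2 (1.92 to 1.95), 2.35% in cluster 3 (2.34 to 2.37) and 1.76% in cluster 4 (1.74 to 1.78). The intervals were computed on the counts divided by 2, because 90.1% of the ATAC values were even numbers. In RNA the order was the same at both ends: the share of UMIs was 0.969% in cluster 0, 1.18% in cluster 1, 1.24% in cluster 4, 1.40% in cluster 2 and 1.73% in cluster 3. Clusters 1 and 4 were neighbours in both measures, and their ATAC intervals overlapped. On the log2 scale, each cluster's share over the mean share of the other 4 was -0.56 in ATAC and -0.52 in RNA for cluster 0, and 0.47 and 0.53 for cluster 3. Clusters 1, 2 and 4 lay between -0.07 and 0.10 in ATAC and between -0.18 and 0.13 in RNA. These ratios are tied to each other, since each cluster is in the reference of the other 4. In the 20% portion the ATAC values were -0.57 for cluster 0 and 0.50 for cluster 3, and the RNA values were -0.53 and 0.56. From the highest to the lowest cluster the difference was 0.83 on the log2 scale in ATAC and 0.83 in RNA. Only chromosome 20, at 0.97 in ATAC and 0.84 in RNA, had a larger difference among the 23 chromosomes compared. Chromosome 22 was singled out with such a difference known. Its rank, and its values set beside all chromosomes below, therefore describe the difference and do not support it. Doublet calls made up between 0.620% (cluster 2) and 10.2% (cluster 3) of a cluster's nuclei. Without them the difference was 0.90 in ATAC and 0.91 in RNA.

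Along the arm, the low share of cluster 0 was spread over its whole length, while the high share of cluster 3 was uneven. The arm was divided into 18 windows of 2 Mb, from 16 Mb (window 1, nearest the centromere) to 52 Mb (window 18), each with at least 10 peaks. A window was called when the log2 ratio of a cluster's share to the mean of the other clusters was at least 0.32 above or below 0, and single peaks and genes were called by the same fold. Cluster 0 was below 0 in all 18 windows, between -0.80 (window 8, 30 to 32 Mb) and -0.27 (window 1), with a median of -0.55. It was called lower in 17 of 18 windows, beside 23.5% of the 1390 windows of all chromosomes for the same cluster and direction. The RNA of cluster 0 was called lower in all 17 windows with at least 5 expressed genes, beside 23.1% of 837 such windows. Cluster 3 was called higher in 12 of 18 windows in ATAC (18.6% over all chromosomes) and in 13 of 17 in RNA (15.1%). Its ATAC values ran from -0.25 in window 17 to 1.245 in window 9 (32 to 34 Mb). In window 17 the 20% portion stood at 0.07 and the RNA at 0.26. The ATAC values were 0.84 in window 7 and 0.76 in window 8, and 0.08 at the end of the arm in window 18. In ATAC, cluster 3 stood farthest above the others between 28 and 34 Mb. Its ATAC was not called in window 2 (18 to 20 Mb), from 40 to 44 Mb and from 46 Mb onwards. Its RNA was called in windows 2, 13, 14 and 18, at 0.70, 0.35, 0.45 and 0.33, and not in windows 1, 12, 16 and 17. In RNA it was highest in windows 6 and 11, at 0.87 and 0.85, with 0.54 in window 7.

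**Figure D1:**
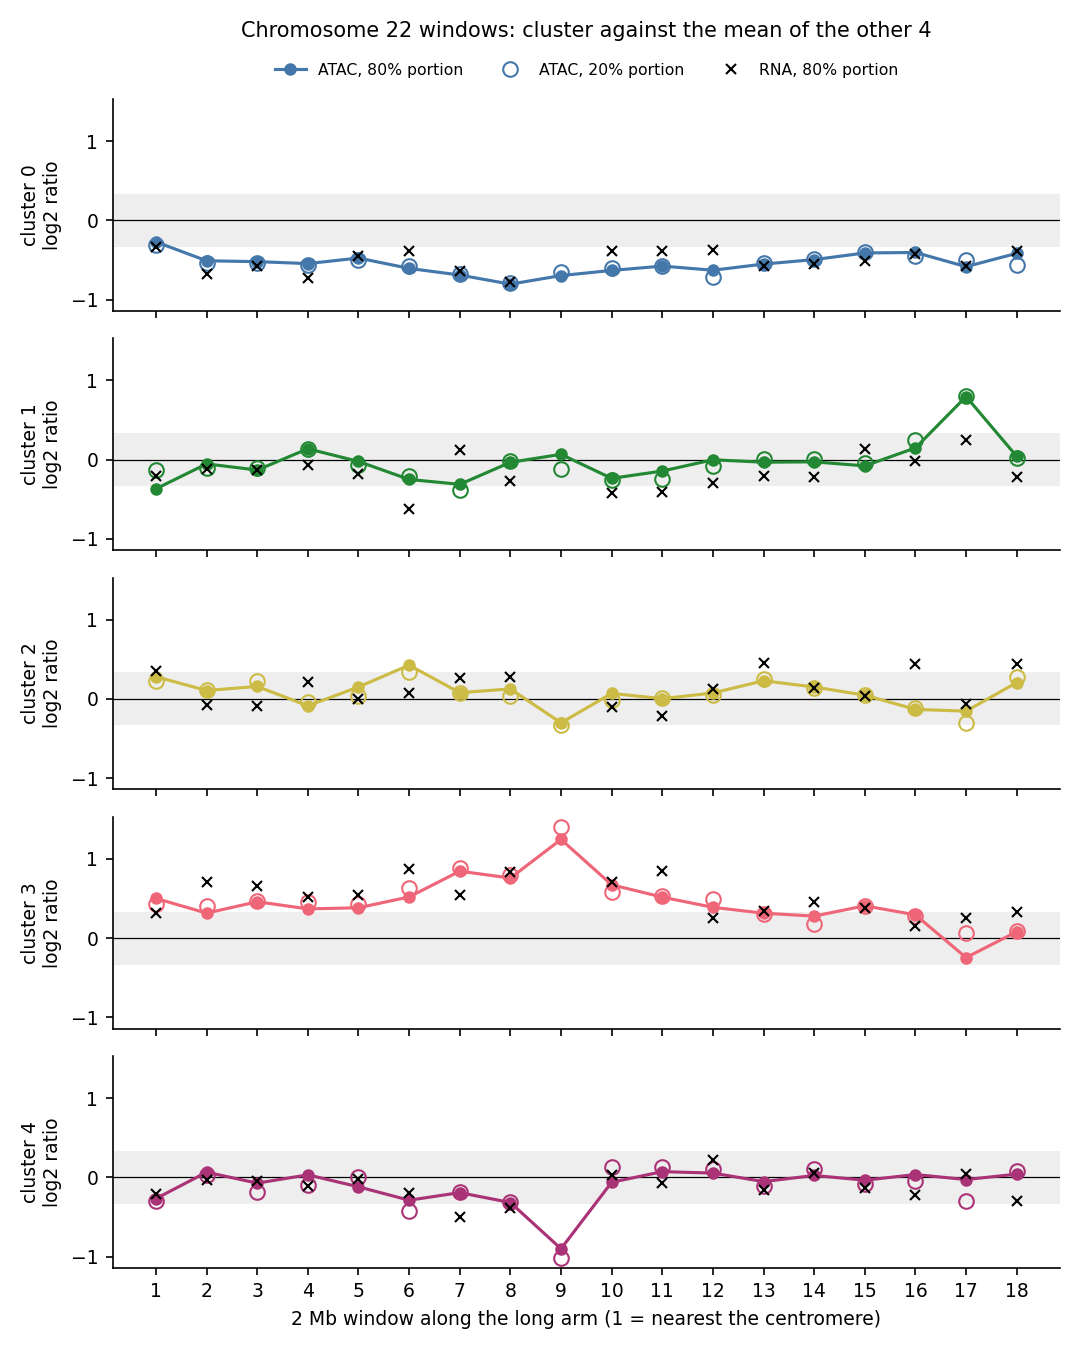
ATAC counts and RNA UMIs of 18 windows of 2 Mb along the long arm (x axis) in each RNA cluster, as the log2 ratio to the mean of the other 4 clusters (y axis). Filled points and lines are ATAC of the 80% portion, open circles ATAC of the 20% portion, crosses RNA of the 80% portion, and the grey band spans 0.32 either way. Cluster 0 lies between -0.80 and -0.27 in ATAC in all windows, and cluster 3 peaks at 1.245 in window 9.

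The other clusters left the band of 0.32 in few windows. Over all 5 clusters, 33 of 90 cluster and window pairs were called, a smaller share than the 45.7% called over all chromosomes. In cluster 1, window 17 (48 to 50 Mb) stood at 0.80 in ATAC and at 0.80 in the 20% portion. Its median over single peaks was 0.40, and its RNA stood at 0.24 and, in the 20% portion, at 0.56. That window holds the intergenic cluster 1 peak printed above. In cluster 4, window 9 stood at -0.90 in ATAC and -1.02 in the 20% portion. The UMIs of all 30 genes of that window, of which 4 counted as expressed, too few for the RNA comparison, stood at -0.79 in cluster 4 and 0.64 in cluster 3. Cluster 2 was highest in window 6 (26 to 28 Mb), at 0.43, with 0.07 in RNA.

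Cluster 0 was also lowest and cluster 3 highest by the median over single peaks and over single genes. Among the 945 chromosome 22 peaks with at least 5 CPM (counts after scaling the cluster's ATAC counts to a sum of 1000000) on average over the clusters, the median log2 ratio of cluster 0 was -0.62, with quartiles of -0.89 and -0.31. The median over the 44425 peaks of all chromosomes with that level was -0.02. In cluster 0, 74.5% of these chromosome 22 peaks were called lower, beside 33.7% over all chromosomes. In cluster 3 the median was 0.37 (-0.11 over all chromosomes), and 54.9% were called higher, beside 26.9%. Among the 209 chromosome 22 genes with at least 10 CPM of UMIs on average, 78.5% were called lower in cluster 0 (32.7% over all chromosomes) and 71.3% higher in cluster 3 (23.1%). Peaks near gene starts and those farther away gave like values, -0.59 and -0.53 in cluster 0 and 0.48 and 0.45 in cluster 3. Across the 22 autosomes, the ATAC ratio of cluster 0 had a correlation of -0.51 with the median GC content of a chromosome's peaks, and that of cluster 3 one of 0.35. With counts adjusted by decile of GC content, the difference between the highest and lowest cluster was 0.85.

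ATAC and RNA moved together over windows and clusters. Over 85 pairs of a window and a cluster, Pearson's r was 0.845 and Spearman's rho 0.836, and 65 of the 85 pairs had the same sign in both. Most of this lay between clusters. Within a cluster r over the 17 windows ran from 0.17 in cluster 2 to 0.57 in cluster 3. The points share their libraries, and the ratios of 1 window are tied to each other, so the correlation is a description.

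**Figure D2:**
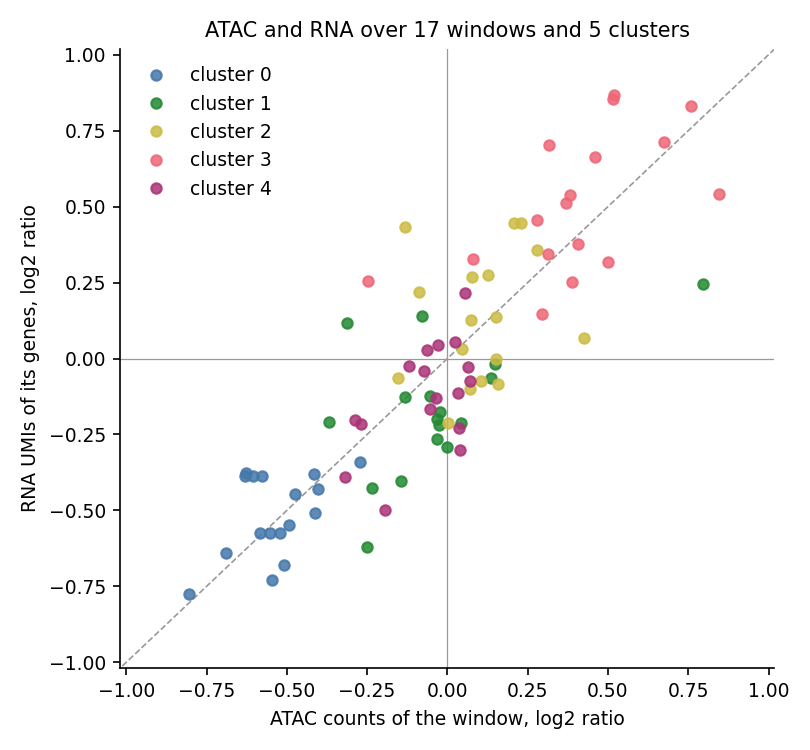
RNA (y axis) against ATAC (x axis), both as log2 ratios to the mean of the other clusters, for 17 windows and 5 clusters, with equal values on the dashed line. All cluster 0 points lie in the lower left. Cluster 3 points lie in the upper right except window 17, at -0.25 in ATAC and 0.26 in RNA. Points of other clusters lie in both of these quadrants, and r over the 85 points is 0.845.

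Cluster 3 was not uniform. A finer grouping, chosen after the values had been seen, divided it into part 3a (470 nuclei, led by AL683807.1 and MT1E) and part 3b (378 nuclei, led by TAGLN and MGP), and divided cluster 0 into parts 0a and 0b. Chromosome 22 took 2.14% of ATAC counts in part 3a (interval 2.12 to 2.16) and 2.69% in part 3b (2.68 to 2.72), and 1.65% and 1.84% of UMIs. The parts of cluster 0 were close to each other, at 1.35% and 1.28% of ATAC counts. Between 26 and 34 Mb, part 3b stood at 1.05, 1.198, 1.15 and 1.80 in windows 6 to 9, against the mean of clusters 0, 1, 2 and 4. Part 3a stood at 0.04, 0.57, 0.44 and 0.73 in the same windows. In these 4 of 18 windows, which follow each other, the parts lay at least 0.5 apart, a share near the 18.9% of windows over all chromosomes. In the 20% portion, part 3b stood at 1.11, 1.15, 1.15 and 1.89 and part 3a at 0.21, 0.69, 0.53 and 1.00. RNA gave 1.249, 0.86, 1.27 and 1.00 for part 3b and 0.55, 0.29, 0.45 and 0.33 for part 3a, where the last window has 4 expressed genes among its 30. The difference of part 3b from part 3a had an r of 0.80 and a rho of 0.60 between ATAC and RNA over 17 windows.

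**Figure D3:**
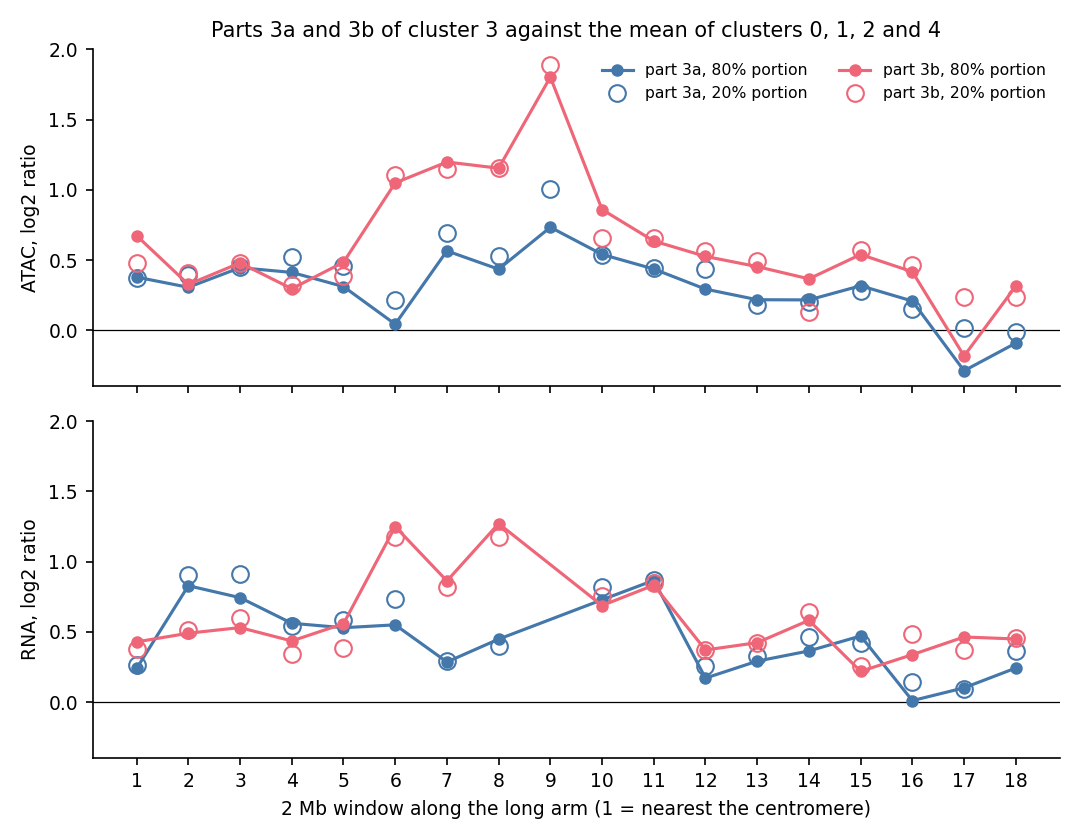
ATAC (upper panel) and RNA (lower panel) of parts 3a and 3b in 2 Mb windows along the long arm, as log2 ratios to the mean of clusters 0, 1, 2 and 4. Lines with filled points are the 80% portion and open circles the 20% portion. The parts lie farthest apart in windows 6 to 9, where part 3b reaches 1.80 in ATAC and part 3a 0.73.

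The parts were also compared in windows of 1 Mb, for which no share over all chromosomes was taken. The difference of part 3b from part 3a was 0.19 at 25 to 26 Mb, 0.49 at 26 to 27 Mb and 1.38 at 27 to 28 Mb. It stayed between 0.56 and 1.27 up to 34 Mb, and was 1.68 over the 12 peaks at 34 to 35 Mb and 0.25 at 35 to 36 Mb. Farther along it was 0.61 over the 40 peaks at 47 to 48 Mb and 0.57 over the 17 peaks at 48 to 49 Mb. Windows 6 to 9 were chosen for their ATAC difference, so the values of their peaks describe how it was spread and do not support it. The gene values come from the same nuclei and windows and are read in the same way. Peaks and genes are set beside the other windows of chromosome 22 only, and no share over all chromosomes was taken. Of the 193 peaks with at least 5 CPM on average in windows 6 to 9, 92.7% were higher in part 3b, with a median difference of 0.68 and quartiles of 0.46 and 1.13. In the other windows the median over 752 peaks was 0.15 and 62.8% were higher. Near gene starts the median in windows 6 to 9 was 0.61 over 94 peaks, and farther away it was 0.84 over 99 peaks. Near peaks here can include those between the first and last start of SYN3, in window 9. Of 59 genes with at least 10 CPM in a cluster in these windows, 54 had more CPM in part 3b, with a median difference of 0.64. In the other windows 111 of 196 genes did, with a median of 0.08. XBP1, a transcription factor of the unfolded protein response at 28 to 30 Mb, had 61.8 CPM in part 3a and 145 in part 3b. LIMK2, a kinase of actin regulation at 30 to 32 Mb, had 17.3 and 27.6 CPM. SEC14L2, a lipid transfer protein gene in the same window, had 35.3 and 74.2 CPM. CHEK2, a DNA damage checkpoint kinase, had 17.5 and 27.9 CPM, and NF2 had 115 and 141 CPM. TIMP3, an inhibitor of matrix metalloproteinases in window 9, went the other way, with 8.91 and 4.76 CPM.

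The chromosome's share also varied from nucleus to nucleus within part 3a. Shares were taken over the 6401 nuclei with at least 1000 ATAC counts and 500 UMIs. The median share of ATAC counts was 1.30% in cluster 0 (quartiles 1.17 and 1.43), 1.77% in cluster 1, 1.94% in cluster 2, 1.73% in cluster 4 and 2.48% in cluster 3 (1.83 and 2.86). Counting error alone gave an SD of 0.170 percentage points in cluster 0, where the measured SD was 0.231. In part 3a it gave 0.211 and the measured SD was 0.592 over 463 nuclei. The shares of part 3a formed 2 humps. In steps of 0.2 percentage points, 67 nuclei had 1.4 to 1.6%, 31 had 2.0 to 2.2% and 64 had 2.2 to 2.4%. The steps between the first 2 of these held 64 and 41 nuclei, and those from 2.4% to 3.0% held 39, 44 and 30. Only this step width was used, and doublet calls were kept. Part 3b had 1 hump, with 85 of 369 nuclei at 2.8 to 3.0%, and a median of 2.79%. The same nuclei that were low in ATAC were low in RNA: in part 3a, rho between the ATAC and RNA shares of a nucleus was 0.838 in the 80% portion and 0.817 over 88 nuclei of the 20% portion. Among the 23 chromosomes, chromosome 22 had the highest rho in part 3a, followed by chromosome 3 at 0.755, and the median chromosome had 0.514. In part 3b rho was 0.428, and chromosome 22 ranked 13 of 23 there and 7 of 23 in cluster 3 as a whole. In clusters 0, 1, 2 and 4, rho lay between 0.107 and 0.447, with ranks from 12 to 21. The ATAC shares from odd and even windows of part 3a had a rho of 0.776.

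**Figure D4:**
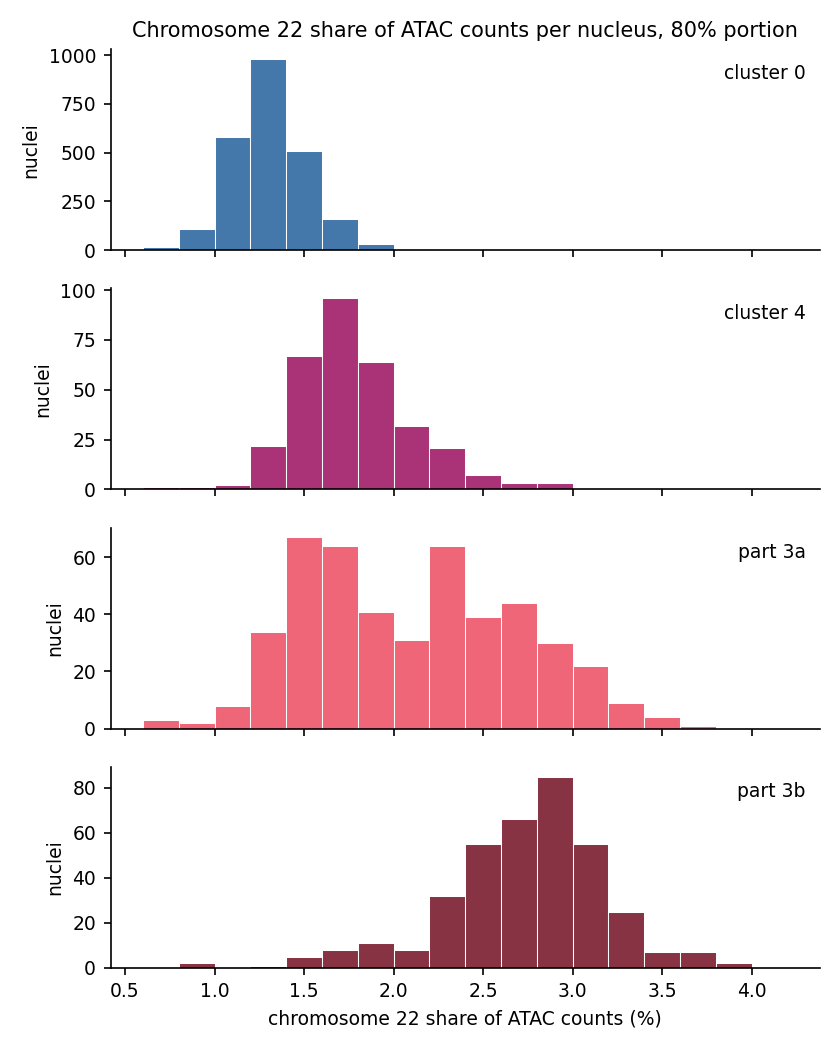
Number of nuclei (y axis) by the chromosome 22 share of their ATAC counts in percent (x axis, steps of 0.2) in clusters 0 and 4 and parts 3a and 3b of the 80% portion. Clusters 0 and 4 and part 3b have 1 hump, and part 3a has humps at 1.4 to 1.6% (67 nuclei) and 2.2 to 2.4% (64 nuclei).

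To see where along the arm these nuclei differed, part 3a was ranked by RNA share and its ATAC counts compared between a low, a middle and a high group of 154, 155 and 154 nuclei, a division chosen after the values had been seen. The 3 groups had median ATAC shares of 1.57%, 2.12% and 2.70%. In every one of the 18 windows the high group had the larger share, by 0.46 to 0.97 on the log2 scale. The 20% portion gave 0.16 to 0.99, again above 0 in 18 of 18 windows. Over the chromosome the difference was 0.81. The ranking by the RNA of this chromosome sets the groups apart on it, so the values describe where along the arm they differed. At least 0.5 apart were the groups in all windows but 17 and 18 (0.48 and 0.46), and parts 3a and 3b only in windows 6 to 9. In the 20% portion the groups fell short of 0.5 in windows 1 and 17 (0.42 and 0.16). The parts did so there in window 7, at 0.69 and 1.15. The groups are the ends of a ranking by this chromosome's RNA, while the parts are whole and were grouped without it. The 2 differences are therefore not alike in kind. Markers of other clusters moved with the groups. MEG3 had 21.3 CPM in the low and 0.707 in the high group, ALDH1A1 259 and 104, CARD18 12.6 and 2.47, and EGFR 499 and 419.6. DHRS2, which leads cluster 3, had 1097 and 1031, and TAGLN, which leads part 3b, had 12.6 and 4.95. In the 20% portion MEG3 had 27.8 and 2.52, ALDH1A1 182 and 90.8 and EGFR 466 and 459, and CARD18 had no UMI in either group. Doublet calls made up 16.2%, 20.6% and 1.30% of the groups. Without them, 404 nuclei remained, MEG3 stood at 0.9002 CPM in the low group, and the median ATAC shares were 1.57% and 2.74%. The windows then differed by 0.55 to 1.07, above 0 in 18 of 18.

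**Figure D5:**
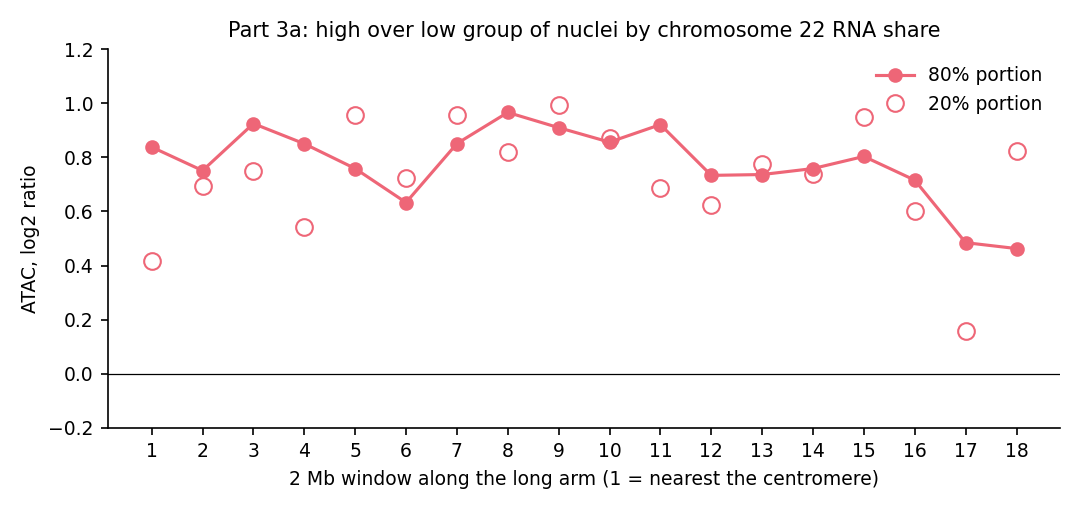
ATAC counts of part 3a in 2 Mb windows along the long arm (x axis), as the log2 ratio of the group of nuclei with the highest chromosome 22 RNA share to the group with the lowest (y axis). Filled points are the 80% portion and open circles the 20% portion, and all points lie above 0.

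Gene groups of chromosome 22 were described by lists counted as wholes. A listed gene was read when it had at least 10 CPM in a cluster. Over all genes with that level, 35.3% of 12434 were called lower in cluster 0 and 25.8% higher, and in cluster 3 23.5% were higher and 31.2% lower. Over the 255 such genes of chromosome 22, 200 were lower in cluster 0 and 175 higher in cluster 3.

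All 14 listed genes of replication, translation and cell division were read, with 12 lower in cluster 0, 11 higher in cluster 3, and medians of -0.72 and 0.58. RANGAP1, the GTPase-activating protein of Ran, had 17.6 CPM in cluster 0 and 21.5, 35.2, 45.2 and 43.2 in clusters 1 to 4. SNU13, a spliceosome subunit, had 144 CPM in cluster 0, 164 in cluster 1, 256 in cluster 2, 326 in cluster 3 and 200 in cluster 4. The ribosomal protein gene RPL3 had the most UMIs of the chromosome, 108816, and varied less, from 977 CPM in cluster 1 to 1427 in cluster 4. XRCC6, which encodes Ku70 of DNA end joining, was highest in cluster 2, at 342 CPM, with 311 in cluster 3 and 160 in cluster 0.

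Stress and redox genes were lower in cluster 0 without exception, 11 of 11 read. In cluster 3, 7 were higher and none lower. MIF, a cytokine with tautomerase activity and among the 5 genes with the most UMIs, had 511 CPM in cluster 0 (95% exact Poisson interval 504 to 518) and 953 in cluster 3 (937 to 968). HMOX1, heme oxygenase 1, had 22.4 CPM in cluster 0 and 88.8 in cluster 3, where part 3a had 120.1 and part 3b 41.2. TST and MPST, neighbouring sulfurtransferase genes, were highest in cluster 1, at 55.3 and 42.0 CPM. ATF4, a transcription factor of the integrated stress response, was highest in cluster 4, at 115 CPM.

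Among kinases and adaptors, 11 of 13 listed genes were read, with 8 lower in cluster 0 and 9 higher in cluster 3. RAC2, a small GTPase known from blood cells, had 35.0 CPM in cluster 3 and 25.9 in cluster 4, and 7.14 or less in the others. MAPK11 and PDGFB did not reach 10 CPM. Of the tumour suppressors and chromatin genes, 7 of 8 were read, with 5 lower in cluster 0 and 3 higher in cluster 3. NF2 had 125 CPM in cluster 3 and 24.3 to 45.9 elsewhere. SMARCB1 had 46.0 in cluster 3 and 26.1 to 36.5 elsewhere. EP300 was highest in cluster 2, at 57.3, with 37.5 in cluster 0.

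Lipid and mitochondrial genes had 6 of 9 lower in cluster 0 and 5 of 9 higher in cluster 3, with PLA2G6 under 10 CPM. TSPO, a protein of the outer mitochondrial membrane, had 159 to 163 CPM in clusters 0, 1 and 2, 279 in cluster 3 and 234 in cluster 4. TYMP, thymidine phosphorylase, had 122 CPM in cluster 2 and 24.0 to 45.1 elsewhere.

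Cytoskeleton and matrix genes had fewer calls in these directions. Of 9 read, 5 were lower and 1 higher in cluster 0, and 2 were higher and 4 lower in cluster 3, with a median of -0.20 there. TIMP3 had 97.0 CPM in cluster 0 and 4.68 to 12.02 elsewhere. The peak at its start stood at 1.94 on the log2 scale in cluster 0, although window 9 as a whole stood at -0.70 there. That peak also stood at 0.97 in cluster 2, where TIMP3 had 12.02 CPM. The galectin gene LGALS1 and MYH9, a non-muscle myosin heavy chain, were highest in cluster 3, at 1155 and 482 CPM. FBLN1, a matrix glycoprotein gene, had 42.8 CPM in cluster 2 and 11.6 in cluster 3.

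Of the APOL family, which includes an apolipoprotein of the trypanosome lytic factor, 3 of 6 were read and all 3 were higher in cluster 4 (19.9% of all genes at that level). APOL1 had 151 CPM in cluster 4 and 3.08 to 17.6 elsewhere. The peak at its start did not follow this, at 0.48 on the log2 scale in cluster 4 and 0.80 in cluster 3. APOL6 had 53.0 in cluster 4, 43.5 in cluster 3 and 30.6 in cluster 0, and under 8 in clusters 1 and 2. Both APOBEC3 genes read, of 7 listed cytidine deaminases, were higher in cluster 3. APOBEC3C had 38.0 CPM there and 16.96 to 24.3 elsewhere, and APOBEC3G 11.3 and at most 2.15. The family members resemble each other in sequence, and how shared reads were divided in the counting is not stated. Of the cytokines and receptors, LIF and IL17RA were read of 6 listed. LIF, a cytokine of the interleukin-6 family, had 20.5 CPM in cluster 1 and 4.37 in cluster 0, and IL17RA had 32.3 in cluster 2 and 12.4 in cluster 0. A list of genes that the lines should lack held 10 genes of the table, genes of blood cells and PVALB, a gene of neurons and muscle. None passed 1.88 CPM in any cluster, and VPREB1, IGLC1, IGLC2, IGLC3 and PVALB had no UMI.

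A few genes and peaks were nearly private to a cluster, and these were no more frequent than elsewhere in the genome for most clusters. A gene was counted when it had at least 50 CPM and 4-fold the CPM of every other cluster, with 1 CPM added to both. On chromosome 22 this held for 1 gene in cluster 0 (TIMP3), 1 in cluster 3 (SMC1B, a meiotic cohesin subunit, 75.4 CPM against at most 15.7) and 1 in cluster 4 (APOL1), beside 0.15%, 0.0574% and 0.137% of all genes, and for none in clusters 1 and 2 (0.27% and 0.265%). Of the genes with the largest ratio in cluster 0, TBC1D22A and BID were in fact higher in another cluster. In cluster 2 the largest ratios were those of AL117329.1 (171 CPM against at most 45.8), TYMP and PRAME, a cancer-testis antigen gene (127 against at most 70.2). ZNRF3, a ubiquitin ligase that restrains Wnt receptors, and DUXAP8, a pseudogene with related copies, were among the 3 genes with the largest ratio in cluster 1, at 91.0 and 130.2 CPM.

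A peak was counted with at least 20 CPM and the same 4-fold margin. None was found in cluster 0 (0.0468% of all peaks), 6 of 2824 in cluster 1 (0.226%), 3 in cluster 2 (0.284%), 7 in cluster 3 (0.121%) and 1 in cluster 4 (0.121%). Of the 7 peaks of cluster 3, 2 held CCAAT or ATTGG at least 5 times, among them the RFPL3 intron peak. The RFPL3 intron peak was also the only 1 of the 7 that lay near a gene start, that of RFPL3. That peak, at chr22:32354670-32355566, had 51.7 CPM in cluster 3 and at most 3.60 elsewhere. In cluster 1 the peak at chr22:48369911-48370794 had 49.5 CPM (560 counts) and no count in cluster 2. Cluster 4 had its largest excess at chr22:43127507-43128040 over an exon of BIK, with 22.4 CPM against at most 2.74. Cluster 0 had its largest excesses at chr22:20424747-20425644 in a UTR of SCARF2 and at chr22:50705077-50706049 in a UTR of SHANK3, with 14.4 and 9.69 CPM against at most 1.86 and 2.57. The 3 peaks with the most counts had at least 35.0 CPM in every cluster. At chr22:38705244-38706150, before GTPBP1, CPM was 49.2 in cluster 0, 73.2 in cluster 3 and 65.9 to 80.5 in the others. At chr22:36387754-36388676, at the start of MYH9, it was 46.1 in cluster 0 and 83.1 in cluster 3. At chr22:30195977-30196955, inside a lncRNA gene (intronic), it was 35.0 in cluster 4, 46.3 in cluster 0 and 75.3 to 77.1 elsewhere.

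The 6 peaks below 16 Mb, between chr22:10683029 and 12694292, stood apart from the long arm. They held 946 of the chromosome's counts, too few peaks for a window of their own, and 66.8% of these counts came from cluster 2, against 16.8% of the counts above 16 Mb. Their summed level was 67.3 CPM in cluster 2 and 3.60 to 8.10 in the others. The peak at chr22:12601794-12602698, nearest the pseudogene FRG1GP, had 285 of 345 counts in cluster 2, and the peak at chr22:10961112-10961972, nearest FRG1FP, 231 of 253. The peak at chr22:10683029-10683919 had all of its 36 counts in cluster 3. In that peak 2 of 6 pieces of 50 bases occurred once in the reference genome, as they did in the peak at chr22:11973806-11974703, so where their reads belong is uncertain.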

How the data were processed

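RNA and ATAC counts per barcode were taken as the authors deposited them, as raw counts from Cell Ranger ARC 2.0.0 on GRCh38 (submitters' processing notes), with peaks called separately for each portion. The barcodes had been called as cells by the authors, and all of them were kept in the values reported. Whether an ATAC count is a fragment or a fragment end is not stated. The matrix of both portions together and the long reads were not used here, and no column of per-sample values was left without a sample.

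Nuclei of the 80% portion were clustered on RNA in Seurat 5.3.0 (R 4.3.3) with 2000 variable genes, 30 components, 20 neighbours and seed 0, at the lowest resolution giving at least 5 clusters, with chromosome 22 genes left out. Nuclei of the 20% portion were given the cluster with the most similar mean profile. This rule gave 98.3% of 80% nuclei back their cluster (93.6% with 3a, 3b, 0a and 0b, of which 3 nuclei are in none). The profiles were means over those same 80% nuclei, so these rates do not measure how well the 20% nuclei were assigned. Scrublet (scanpy 1.11.5), run at an expected rate of 0.06, called 385 barcodes doublets (5.87%), which were kept except where stated. Counts were summed per cluster and scaled to a sum of 1000000 (CPM). Exact binomial and Poisson intervals at 95% came from scipy 1.17.1, and the summed depth per cluster (3886694 to 29091306 ATAC counts) makes them narrow. Peaks were set against gene starts in the authors' feature table, taken as the stretch from a gene's first to its last start. Named peaks were also set against GENCODE v44. The ATAC window ratios and the rule for peaks high in 1 cluster were tested on simulated counts, and the other steps were not.

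The members and lists were chosen with earlier results of these data known. Named were, per cluster, the 2 peaks with the largest excess over the highest other cluster and the 3 genes with the largest ratio to it among those of at least 50 CPM, the 3 peaks and 5 genes with most counts, and members of the lists. CHEK2, XBP1, LIMK2 and SEC14L2 beside parts 3a and 3b were picked from these after their values were seen. No comparison had replicates, so no p-value is given. Some genes and peaks that this rule names are not reported here.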

Additional observations from a re-analysis of the deposited data

How the results depend on the processing

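On the log2 scale, the difference between the highest and lowest cluster (0.83 in ATAC, 0.83 in RNA) moved beyond counting error to 0.90 and 0.91 without doublet calls, 0.77 and 0.85 centred on the median of the autosomes, 0.85 and 0.87 in the 20% portion, and 0.86 and 0.87 there without barcodes called in both portions. With 7 RNA clusters, an alternative chosen after seeing the data, it was 1.07 and 0.95. In ATAC alone it moved to 0.86 for peaks near gene starts, 0.78 for those farther away, 0.81 without the 10% most variable peaks, 0.77 by presence of a peak, 0.85 for peaks shared with the 20% portion and 0.85 adjusted for GC. In RNA alone it moved to 0.77 without the 2000 most variable genes and 0.82 for genes with at least 10 CPM. Called windows and clusters (33 of 90) became 82 of 175 in 1 Mb windows, 12 of 90 at 1.5-fold and 64 of 126 with 7 clusters, and stayed between 28 and 44 in the other 21 alternatives.

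The correlation r of ATAC and RNA over windows (0.845) was 0.850 without doublets, 0.836 centred, 0.799 against the median cluster, 0.850 and 0.751 for peaks near to and far from gene starts, 0.855 without the most variable peaks, 0.815 without the variable genes, 0.813 for genes with at least 10 CPM, 0.837 by presence, 0.847 with halved counts, 0.855 for shared peaks, 0.887 in shifted windows, 0.851 in 1 Mb windows, 0.842 by medians, 0.847 in the 20% portion, 0.849 there without shared barcodes and 0.90 with 7 clusters. The cause of these shifts was not tested. Leaving out the barcodes called in both portions, also chosen after seeing the data, gave 0.83 in ATAC. The ratio of cluster 0 stayed below 0 and that of cluster 3 above 0 in 18 of 18 alternatives in ATAC and 11 of 11 in RNA. Their size depended on the reference. Against the median cluster, cluster 0 stood at -0.43 in ATAC and -0.35 in RNA, and cluster 3 at 0.40 and 0.48. The sign of the small ATAC ratio of cluster 1 held in 15 of 18 alternatives and that of the RNA ratio of cluster 4 in 10 of 11. Against the median cluster both ratios were 0 by construction, since the cluster was itself the median, and this counts among the alternatives where the sign did not hold. No paired analysis was possible because each group has 1 library, so that the groups share a single replicate number, and no test was made. Windows with few peaks limit what depth can show, and the least counted window holds 21946 counts.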
